A study of Mus musculus with 4 samples.

Results

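Hepatic stellate cells are the vitamin A-storing pericytes of the liver sinusoid, and 10 genes used to read their state were compared in liver RNA of Nrg4 KO and WT mice. The genes fall into 6 stellate identity genes (Lrat, Reln, Hgf, Cygb, Des and Hand2) and 4 contractile genes (Acta2, Tagln, Myh11 and Cnn1). Each was taken from the probe set that the platform annotation pairs with that 1 symbol, and each of the 10 had a single such probe set, so they make up 10 of 22180 measured genes. A probe set naming Des together with Gm15179 was left out by that rule, and its log2 values were 0.75 and 0.28 in the KO pools, against 0.42 and 0.34 in the WT pools.

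The Nrg4 KO group held male mice with a knockout of Nrg4, the secreted epidermal growth factor family ligand neuregulin 4, and the WT group held male wild type mice. Mice of both genotypes were put on a NASH diet, which brings on non-alcoholic steatohepatitis, at an age of 3 months and kept on it for 20 weeks, and livers came from fed animals, so no animal here ate a control diet. Each of the 4 arrays (Mouse Gene ST 2.1) held pooled whole-liver RNA, and each genotype had 2 pools; how many animals were pooled, the allele and the cells that lack Nrg4 were not stated in the sources used here. Values are log2 expression as deposited, with an unknown zero point, so a level can be compared between pools for 1 gene but not between genes.

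In a healthy liver, stellate cells esterify retinol and keep it in lipid droplets, and they secrete growth factors and a thin matrix. In chronic injury many of them lose their droplets, divide and become collagen-producing myofibroblasts that carry bundles of smooth muscle actin. Contractile genes are also expressed by the smooth muscle of portal vessels, so in whole-liver RNA they are shared by vessel walls and myofibroblasts. The contrast of identity with contractile genes asks whether the KO livers on this diet differ in the balance between these states. In bulk RNA, a change in the number of such cells and a change in the RNA of each cell cannot be told apart.

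Promoter windows were available from RefSeq (build GRCm38.p6; 250 bases before to 50 after the gene start) for 7 of the 10 genes, including the contractile genes Acta2 and Cnn1. Contractile genes are known targets of serum response factor, which binds the CArG box, a CC and GG pair around an A/T core, so the windows were searched for it on both strands. None of the 7 genes had an exact CArG box, which 1.63% of all 32851 windows hold. With 1 core base free, which takes in the exact form, Acta2 had 2 matches and Lrat had 1, against 9.98% of all windows with at least 1. The windows of Acta2 (chr19:34255324-34255623, minus strand) and Lrat (chr3:82903925-82904224, minus strand) are shown because they alone of the 7 genes hold a match. They do not stand for their classes. Capitals mark the matches.
Acta2: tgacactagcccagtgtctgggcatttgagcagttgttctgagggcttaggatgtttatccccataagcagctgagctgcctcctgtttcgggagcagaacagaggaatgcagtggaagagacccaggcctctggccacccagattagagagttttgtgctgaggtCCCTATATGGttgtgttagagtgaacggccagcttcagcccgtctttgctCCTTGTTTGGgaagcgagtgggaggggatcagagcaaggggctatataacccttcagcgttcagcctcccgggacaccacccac
Lrat: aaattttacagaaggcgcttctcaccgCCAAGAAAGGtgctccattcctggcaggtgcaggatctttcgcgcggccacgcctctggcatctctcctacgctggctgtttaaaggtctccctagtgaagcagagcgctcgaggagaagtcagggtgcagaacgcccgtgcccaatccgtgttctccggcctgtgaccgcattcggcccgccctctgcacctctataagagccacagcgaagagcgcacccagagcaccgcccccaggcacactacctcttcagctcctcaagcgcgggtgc
The matches in Acta2 begin 84 and 34 bases before the gene start, and the match in Lrat begins 223 bases before it. The short GC box GGGCGG, held by 35.7% of windows, occurred in 4 identity genes, with 6 matches in Reln and 2 each in Lrat, Des and Hand2, and in neither contractile gene. These letters are a description of the windows, not of binding.

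Of the 10 genes, Cygb was the one that stood apart between genotypes, and the 4 contractile genes had nearly the same mean level in KO and WT livers apart from Cnn1. No member passed the adjusted threshold, which is a Benjamini-Hochberg adjusted p under 0.05 in limma over the 12458 genes whose mean reached the table median, 0.54 over every probe set. All 10 members were among the genes tested. The background of that call was 0.0482% of genes tested, or 6 genes, with 3 higher and 3 lower in KO (0.0241% each). Nrg4 itself, the check on the labels, had log2 values of 0.93 and 0.93 in the KO pools, against 2.54 and 2.30 in the WT pools; 301 probe sets share its value in KO pool 1, and no member shares its value in any pool with another probe set.

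**Figure D1:**
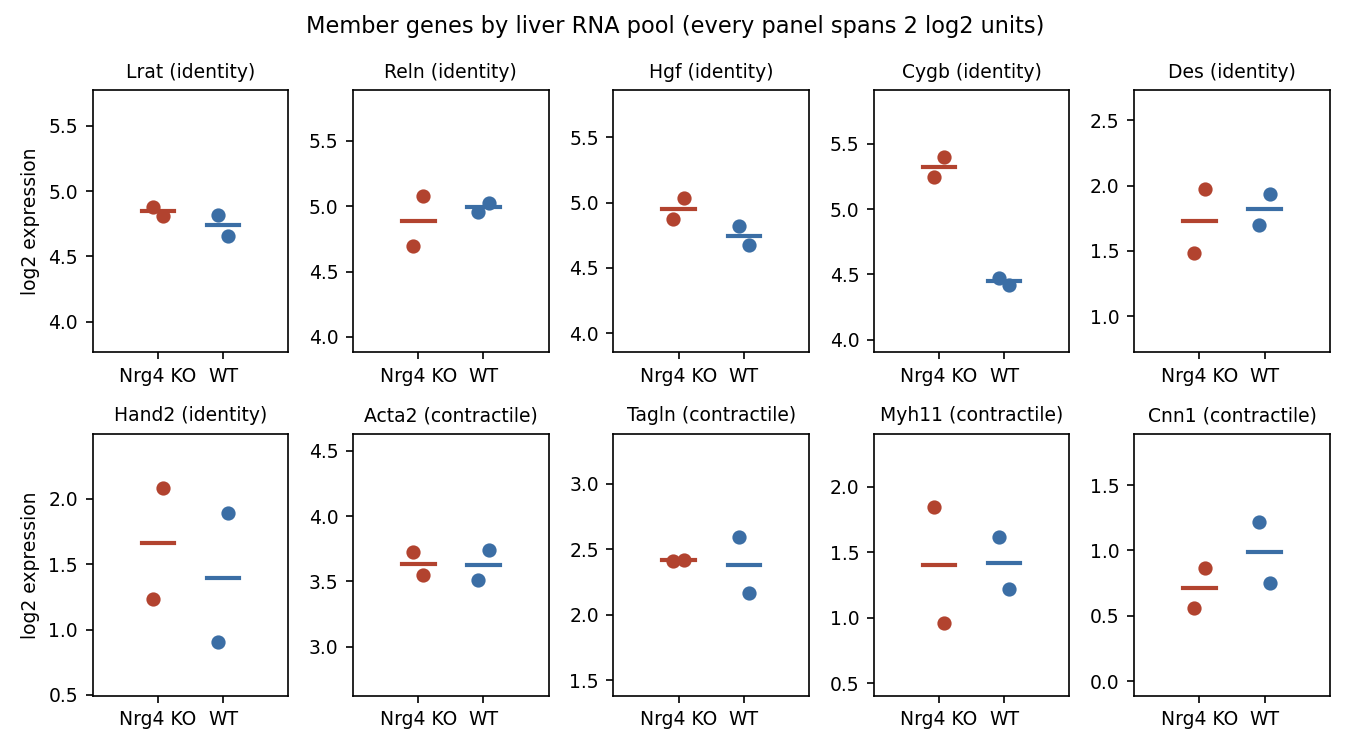
Log2 expression of each member gene in the 2 Nrg4 KO pools (red) and the 2 WT pools (blue), with a line at the mean of each genotype; every panel spans the same height on its own log2 axis. Cygb is the gene whose pools lie clearly apart, with 5.25 and 5.40 in KO and 4.48 and 4.42 in WT.

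Among the identity genes with a part in vitamin A storage stands Lrat, the lecithin retinol acyltransferase that makes the retinyl esters of the droplets. Lrat had log2 values of 4.88 and 4.81 in the KO pools, against 4.82 and 4.66 in the WT pools. The lower KO pool lay just under the higher WT pool, so the genotypes overlapped. The difference was 0.11 ± 0.19 (SE, n = 2 pools each; limma, adjusted p = 0.887), with a 95% interval that runs from a 1.29-fold lower to a 1.503-fold higher level in KO. It was 0.03 without WT pool 2 and 0.19 without WT pool 1.

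Hgf and Reln are secreted products of stellate cells. Hgf, the hepatocyte growth factor that acts on the Met receptor of hepatocytes, had log2 values of 4.87 and 5.04 in the KO pools, against 4.82 and 4.68 in the WT pools. Both KO pools were above both WT pools, by a narrow margin. KO pools lay above WT pools in 22.2% of genes tested and below them in 19.5%, so such a separation is common here. The Hgf difference was 0.21 ± 0.20 (SE; limma, adjusted p = 0.774), and it was 0.12 when KO pool 2 was left out and 0.14 when WT pool 2 was.

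Reln, the large extracellular glycoprotein reelin, had 4.69 and 5.07 in the KO pools, against 4.96 and 5.02 in the WT pools. The KO pools lay on either side of the WT pools. Its difference was -0.11 ± 0.22 (SE; limma, adjusted p = 0.905), and it became 0.08 without KO pool 1.

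Cygb, the globin cytoglobin that marks stellate cells in liver, had log2 values of 5.25 and 5.40 in the KO pools, against 4.48 and 4.42 in the WT pools. The lowest KO value was above the highest WT value, and each genotype's pools lay close together. The level averaged 5.32 ± 0.11 in KO and 4.45 ± 0.04 in WT (SD, n = 2 each), a difference of 0.88 ± 0.19 (SE), or 1.83-fold with a 95% interval of 1.32-fold to 2.55-fold. Across the 12458 genes tested it ranked 328 from the highest difference and 186 by p. The unadjusted p was 0.00445, against 10.3% of genes tested at an unadjusted p under 0.05, and limma's adjusted p was 0.297. With a prior variance that follows intensity the adjusted p was 0.0561, beside 1.09% of genes called in that fit, so Cygb did not pass there either. Without any 1 pool its difference lay between 0.80 and 0.95.

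The other identity genes are Des and Hand2. Des encodes desmin, an intermediate filament protein of stellate cells in rodents and also of muscle. It had log2 values of 1.48 and 1.97 in the KO pools, against 1.70 and 1.94 in the WT pools. The WT pools lay inside the range of the KO pools, and the difference was -0.09 ± 0.25 (SE; limma, adjusted p = 0.928). It turned to 0.15 without KO pool 1 and 0.03 without WT pool 2.

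Hand2, a basic helix-loop-helix transcription factor of mesenchymal cells, had 1.23 and 2.09 in the KO pools, against 0.90 and 1.89 in the WT pools. The pools of 1 genotype differed by 0.85 in KO and 0.99 in WT, more than the genotypes did. Its difference was 0.26 ± 0.43 (SE; limma, adjusted p = 0.880), with an interval from 1.75-fold lower to 2.51-fold higher in KO. Without KO pool 2 it was -0.17, and without WT pool 1 it was -0.23.

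The contractile genes begin with Acta2, the smooth muscle actin by which myofibroblasts are usually recognised. Acta2 had log2 values of 3.72 and 3.55 in the KO pools, against 3.51 and 3.74 in the WT pools. The KO values lay inside the WT range. The interval of its difference ran from 1.41-fold lower to 1.43-fold higher in KO, around a difference of 0.0080 ± 0.20 (SE; limma, adjusted p = 0.994). Its sign turned with arrays centred on their medians (-0.04), with quantile normalization (-0.0074), without KO pool 1 (-0.08) and without WT pool 1 (-0.11). Other actin genes share sequence with Acta2, so its probe set may read relatives too.

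Tagln, the actin-binding protein transgelin, had 2.41 and 2.42 in the KO pools, against 2.60 and 2.16 in the WT pools. The KO pools lay between the WT pools, with a difference of 0.03 ± 0.23 (SE; limma, adjusted p = 0.968). The difference was -0.18 without WT pool 2, -0.01 with arrays centred and -0.03 with quantile normalization. On the fold scale the interval ran from 1.44-fold lower to 1.51-fold higher in KO.

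Myh11, the smooth muscle myosin heavy chain, had 1.85 and 0.96 in the KO pools, against 1.62 and 1.22 in the WT pools. Here the WT values lay inside the KO range, and the difference was -0.01 ± 0.34 (SE; limma, adjusted p = 0.993). It was 0.43 without KO pool 2, 0.18 without WT pool 1 and -0.46 without KO pool 1, so single pools set its direction.

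Cnn1, the actin-associated regulator calponin 1, had 0.56 and 0.87 in the KO pools, against 1.22 and 0.75 in the WT pools. The pools overlapped, and the difference was -0.27 ± 0.25 (SE; limma, adjusted p = 0.765). Its mean over the 4 pools lay 0.31 above the table median, where differences may be compressed. Without WT pool 1 the Cnn1 difference was -0.04, and without WT pool 2 it was -0.51.

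**Figure D2:**
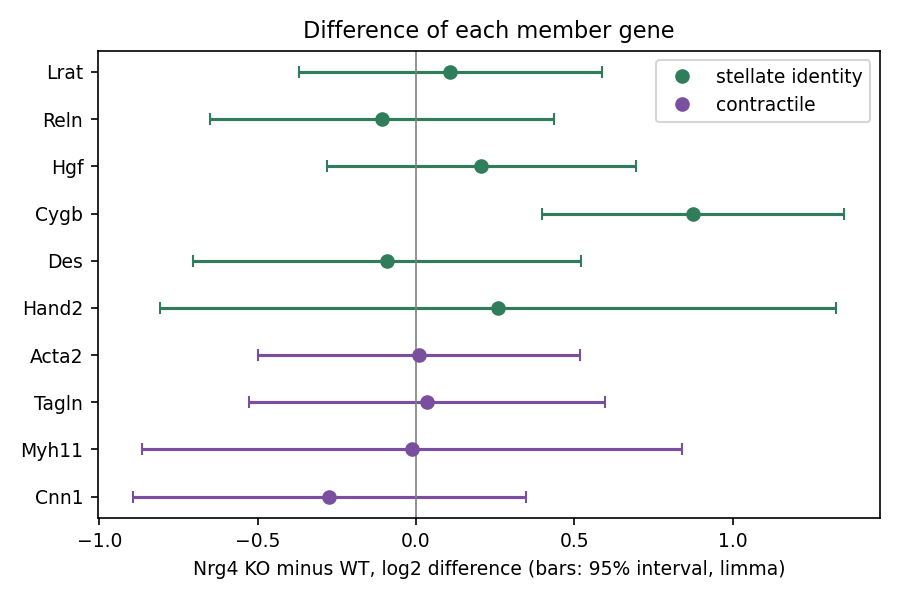
Nrg4 KO minus WT log2 difference of each member gene (point) with its 95% interval from limma (bar); identity genes are green and contractile genes purple. The interval of Cygb, 0.40 to 1.35, lies above 0, while the other 9 intervals include 0.

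As groups, the identity genes had 4 of 6 members above 0 and a median difference of 0.16, and the contractile genes had 2 of 4 above 0 and a median of -0.0031. Over all genes tested 51.6% were above 0 and the median was 0.01. KO pools lay wholly above WT pools for 2 identity genes, Cygb and Hgf, and for 0 contractile genes, beside the background of 22.2%. No contractile or identity gene had its KO pools wholly below. The identity median was 0.11 without Cygb. Leaving out a pool gave an identity median of -0.02 for KO pool 2, 0.02 for WT pool 1, 0.08 for WT pool 2 and 0.22 for KO pool 1.

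The contrast itself was read in each pool as the mean log2 value of the identity genes minus that of the contractile genes. This gap was 1.60 and 2.11 in the KO pools, against 1.37 and 1.80 in the WT pools. The lower KO pool lay under the higher WT pool, so the genotypes overlapped. The gap averaged 1.86 ± 0.36 in KO and 1.59 ± 0.30 in WT (SD, n = 2 each), a difference of 0.27 that was smaller than either spread. It was 0.53 without KO pool 1, 0.01 without KO pool 2, 0.06 without WT pool 1 and 0.48 without WT pool 2, so each single pool moves it by over 1.5 times. No p is given for a score over chosen genes, and an exact two-sided permutation of 2 pools against 2 cannot go below 0.333.

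Cygb carried much of that difference. Without it, an alternative chosen after its value was seen, the gap differed by 0.14, and the mean of the other 5 identity genes was 3.43 and 3.80 in the KO pools, against 3.44 and 3.64 in the WT pools. Those values overlap. Cygb minus that mean of the other 5 was 1.82 and 1.60 in the KO pools, against 1.04 and 0.78 in the WT pools, without overlap and 0.80 apart on average. Relative to Lrat, the log2 ratio of Cygb was 0.37 and 0.58 in the KO pools, against -0.34 and -0.24 in the WT pools. The ratio of Lrat to Acta2, which sets 1 gene of each class against the other, was 1.16 and 1.27 in the KO pools, against 1.30 and 0.92 in the WT pools, and overlapped. These pairs were picked with the values known and describe the arrays only.

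**Figure D3:**
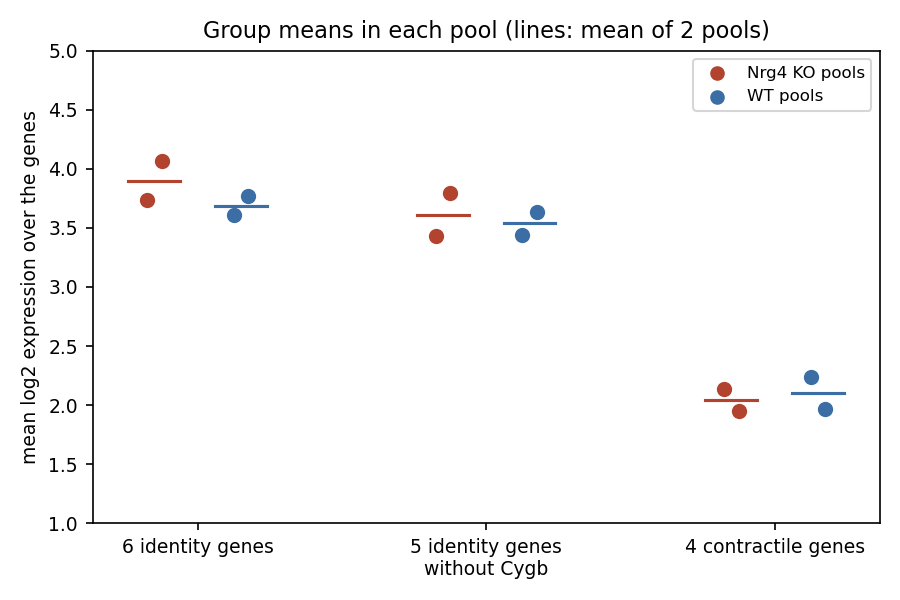
Mean log2 expression over the identity genes, over the identity genes without Cygb and over the contractile genes, in each Nrg4 KO pool (red) and each WT pool (blue), with lines at the mean of 2 pools. KO lies 0.21, 0.08 and -0.06 from WT on average, and the pools overlap in each case; heights are not comparable between gene groups.

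Around the members, 19 of 22 other stellate marker genes were measured singly and 18 were tested. Of these 10 were above 0 and 8 below, beside 51.6% of all genes tested above 0, with a median of 0.07. By limma 0 passed, and 5 were at an unadjusted p under 0.05, beside 10.3% of all genes tested. Hhip, among the 5, had a KO mean of 0.46, under the table median, so it passed the filter only through WT. The 4 with the smallest p lay in both directions. Pdgfra and Pdgfrb, the receptors of platelet-derived growth factor, differed by 1.67 ± 0.29 and 1.14 ± 0.20 (SE), and Adamtsl2, a secreted ADAMTS-like protein, by 1.44 ± 0.25. Colec10, a collectin, had 2.29 and 3.04 in the KO pools, against 4.92 and 4.28 in the WT pools, a difference of -1.93 ± 0.35 (SE). With the variance that follows intensity, limma called Pdgfra (adjusted p = 0.0294) and Colec10 (adjusted p = 0.0258), 1 higher and 1 lower in KO, beside 1.09% of all genes tested called in that fit.

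Genes of vitamin A handling beyond Lrat were read next. In whole-liver RNA these genes are not read from stellate cells alone, and which cells their RNA came from was not tested. Of 20 tested genes 5 were above 0, beside 51.6% of all genes tested, and 15 below, with a median of -0.11. Crabp2, above 0, and Stra6, below 0, each passed the filter only through the genotype where it was higher. By limma 0 passed, and 3 were at an unadjusted p under 0.05, beside 10.3% of all genes tested. Dhrs9, a short-chain dehydrogenase that oxidises retinol, had 2.12 and 2.14 in the KO pools, against 0.74 and 0.94 in the WT pools, a difference of 1.29 ± 0.20 (SE; limma, adjusted p = 0.186). Stra6l, a membrane receptor for the retinol-binding protein, was at 0.55 ± 0.19. On the other side stood Ces1d, a carboxylesterase, at -0.57 ± 0.21 and Cyp26b1, which clears retinoic acid, at -0.68 ± 0.29. Cyp26b1 had 0.21 and 0.23 in the KO pools, against 1.26 and 0.53 in the WT pools. Its mean lay 0.013 above the table median, and it passed the filter only through WT pool 1, so its difference is weakly measured.

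Partners of the 2 secreted members were read in the same way. In the HGF list 8 of 11 tested genes were above 0, beside 51.6% of all genes tested, with a median of 0.27. By limma 0 passed, and 3 were at an unadjusted p under 0.05, beside 10.3% of all genes tested. The highest was the tissue plasminogen activator Plat, at 1.22 ± 0.21 (SE), followed by the membrane proteases' inhibitor Spint1 at 0.77 ± 0.28. Next were the protease St14 at 0.68 ± 0.22 and the urokinase receptor Plaur at 0.62 ± 0.26. Below 0 lay Hpn at -0.29 ± 0.19, the Hgf receptor Met at -0.25 ± 0.19 and Hgfac at -0.0058 ± 0.19. KO pools lay wholly above WT pools for 6 of the 11 and wholly below for 2, beside 22.2% and 19.5% of all genes tested. In the reelin list 5 of 7 tested genes were above 0, beside 51.6% of all genes tested, with a median of 0.10. By limma 0 passed and 0 reached an unadjusted p under 0.05, beside 10.3% of all genes tested. The reelin receptor Vldlr was at 0.81 ± 0.38 and the adaptor Dab2 at 0.55 ± 0.24, while the adaptors Crkl and Crk were at -0.27 ± 0.19 and -0.14 ± 0.20.

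Other genes of smooth muscle contraction gave a different count from the 4 members. Of 15 tested genes 14 were above 0, beside 51.6% of all genes tested, with a median of 0.33, and 7 had KO pools wholly above WT pools, beside 22.2%. By limma 0 passed, and 4 were at an unadjusted p under 0.05, 3 higher and 1 lower, beside 6.37% of all genes tested on the higher side and 3.92% on the lower. Itga8, the integrin alpha 8 chain, had 3.77 and 3.39 in the KO pools, against 2.27 and 2.51 in the WT pools, a difference of 1.19 ± 0.23 (SE; limma, adjusted p = 0.268). Mustn1, a small musculoskeletal protein, was at 0.61 ± 0.19 and the actin crosslinker Actn1 at 0.66 ± 0.21, whereas Mylk, the myosin light chain kinase, was at -0.57 ± 0.19. Many of these genes, Actn1 among them, are expressed in other cells as well. The list genes Actg2, Lmod1, Synpo2, Casq2, Pln and Kcnmb1 lay under the filter on dim genes and were not tested, and over all 21 measured genes the median was 0.22.

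Factors that act on contractile genes had 5 of 6 tested genes above 0, beside 51.6% of all genes tested, and a median of 0.13. By limma 0 passed, and 3 were at an unadjusted p under 0.05, beside 10.3% of all genes tested. Srf, the serum response factor, had 2.99 and 3.14 in the KO pools, against 2.70 and 3.27 in the WT pools, which overlapped. The LIM proteins Fhl2 and Fhl1 were at 0.76 ± 0.23 and -0.63 ± 0.23 (SE), the transcription factor Tead1 at 0.68 ± 0.27, and Mrtfb, an actin-sensing coactivator of Srf, at 0.19 ± 0.23. With the variance that follows intensity, limma called 0 tested genes of the retinoid, HGF, reelin, contractile and serum response lists, and 0 of the 10 members.

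Matrix genes had a higher median difference in the same pools than either group of members. All 16 tested genes of the fibrogenic list were above 0, beside 51.6% of all genes tested, with a median of 0.57. KO pools lay wholly above WT pools for 13 of them, beside the background of 22.2%. Of these 0 passed by limma, and 8 were at an unadjusted p under 0.05, beside 6.37% of all genes tested on the higher side and 3.92% on the lower. The list was chosen with earlier results of these data known, so its direction is no independent evidence. The leading members were Dpt (dermatopontin) at 1.97 ± 0.24 (SE), Lum (lumican) at 1.26 ± 0.21, and the type I collagen chains Col1a2 at 0.92 ± 0.21 and Col1a1 at 0.71 ± 0.19. Dpt alone of the 16 passed in limma with intensity-dependent variance (adjusted p = 0.00369), beside 1.09% of all genes tested. The log2 ratio of Col1a1 to Acta2 was 1.76 and 1.91 in the KO pools, against 1.33 and 0.94 in the WT pools, without overlap. Col1a1 relative to Lrat was 0.61 and 0.65 in the KO pools, against 0.03 and 0.02 in the WT pools, again without overlap. These pairs too were picked with the values known. Col1a1 itself had 5.49 and 5.46 in the KO pools, against 4.84 and 4.68 in the WT pools, so the ratios largely repeat its own separation. How often such ratios separate over all gene pairs was not computed.

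Portal fibroblasts, the other collagen-producing mesenchymal cells of the liver, were read from 9 tested markers. Of these 7 were above 0, beside 51.6% of all genes tested, with a median of 0.53. By limma 0 passed, and 3 were at an unadjusted p under 0.05, beside 10.3% of all genes tested. Gas6, a ligand of TAM receptors, was at 1.33 ± 0.19 (SE), Cd34 at 1.32 ± 0.30 and the matrix protein Smoc2 at 0.97 ± 0.37. The other 6 tested markers overlapped between genotypes. Clec3b (tetranectin) was at 0.53 ± 0.35, Eln at 0.57 ± 0.58, Fbln2 at 0.17 ± 0.43 and Mfap4 at 0.05 ± 0.21. Below 0 lay Thy1 at -0.33 ± 0.47 and Mfap5 at -0.20 ± 0.36. Mfap5 had a KO mean of 0.50, under the table median, so it passed the filter only through WT. Gas6 alone of the 9 passed in limma with intensity-dependent variance (adjusted p = 0.00437), beside 1.09% of all genes tested. The mean over the 10 measured portal fibroblast markers was 1.77 and 2.09 in the KO pools, against 1.56 and 1.38 in the WT pools. Of the 5 tested mesothelial markers 3 were above 0 and 2 below, beside 51.6% of all genes tested above 0. By limma 0 passed and 0 reached an unadjusted p under 0.05, beside 10.3% of all genes tested. Krt7 was at 0.40 ± 0.19, Upk3b at -0.14 ± 0.21 and Lrrn4 at -0.11 ± 0.22. Upk1b was at 0.10 ± 0.24 and Gpm6a at 0.12 ± 0.46. Krt7, also listed as a cholangiocyte marker, had 0.932305 in KO pool 1, as Nrg4 did, a value that 301 probe sets share. Its WT pools, at 0.50 and 0.50, lay under the table median, so it passed the filter only through KO.

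**Figure D4:**
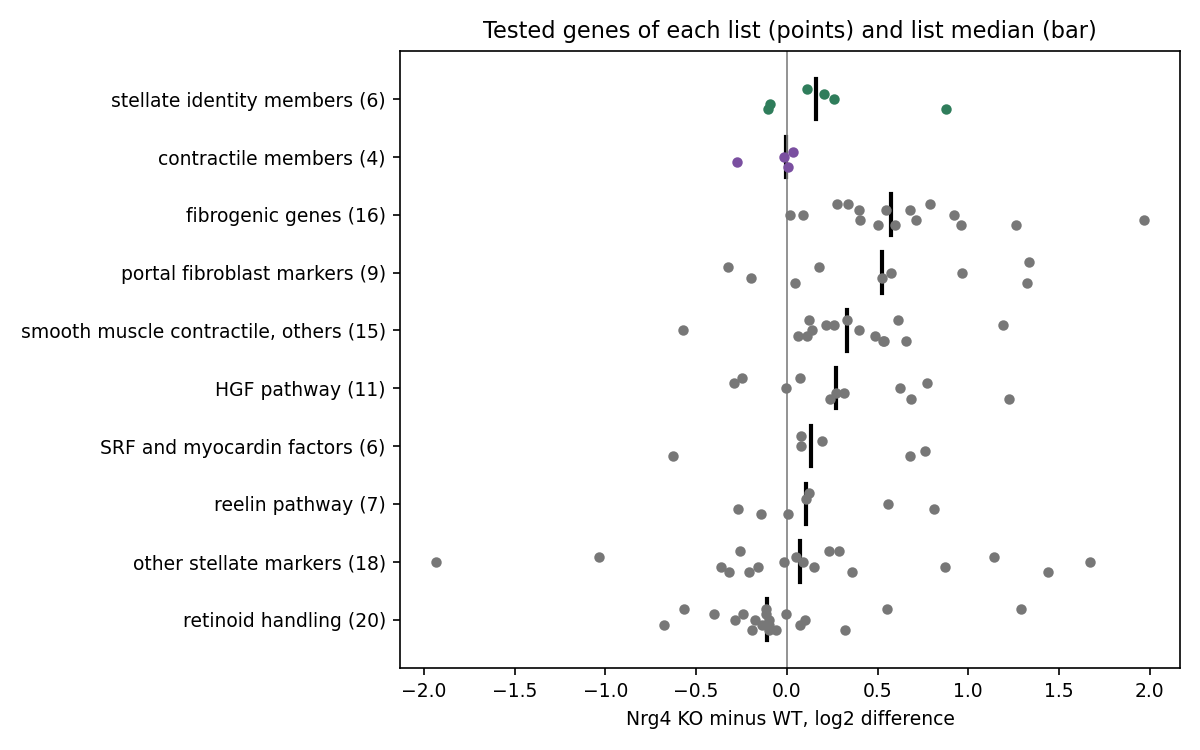
Nrg4 KO minus WT log2 difference of every tested gene (points) in the 2 member groups and in 8 related lists, with the list median as a black bar and the number of tested genes in brackets. The contractile members sit at a median of -0.0031 and the fibrogenic genes at 0.57.

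Markers of other liver cells are given beside the Cygb difference. Over all genes tested 51.6% were above 0. Of 8 hepatocyte markers 6 were below 0, with a median of -0.29 and a mean level of 8.55 and 8.70 in the KO pools, against 8.91 and 8.83 in the WT pools. The 8 sinusoidal endothelial markers were 4 above and 4 below 0, with a mean of 5.10 and 5.11 in the KO pools, against 5.06 and 5.11 in the WT pools. Of 6 Kupffer cell markers 3 were above 0, with a mean of 3.96 and 3.87 in the KO pools, against 4.05 and 4.44 in the WT pools. Among them Marco, a scavenger receptor, was at -2.37 ± 0.33 (SE). Of 5 cholangiocyte markers 4 were above 0, with a mean of 2.20 and 2.69 in the KO pools, against 1.93 and 1.54 in the WT pools. Krt7, among the 4, passed the filter only through KO, as its WT pools lay under the table median. The 9 vascular smooth muscle and pericyte markers, which include the 4 contractile members, had a mean of 2.23 and 2.09 in the KO pools, against 2.25 and 1.99 in the WT pools. Of 4 measured T and B cell markers 3 were above 0, with a mean of 1.28 and 1.39 in the KO pools, against 1.14 and 0.77 in the WT pools. Cd8a, among the 3, had 0.47 and 0.52 in the WT pools, under the table median, so it passed the filter only through KO. The mean levels of the hepatocyte, Kupffer cell, cholangiocyte and T and B cell markers did not overlap between genotypes. How often such list means separate over all genes was not computed. Single genes weigh on them: Marco had 0.76 and 0.66 in the KO pools, against 2.63 and 3.53 in the WT pools. The T and B cell markers ran both ways, with Cd3g at 1.07 ± 0.34 (SE) and Cd3e at -0.42 ± 0.43. In these 6 lists 0 genes passed by limma, and 5 were at an unadjusted p under 0.05, beside 10.3% of all genes tested. With the variance that follows intensity, 2 hepatocyte markers (Pck1 and Cps1) and 1 Kupffer cell marker (Marco) passed as lower. In that fit 1 cholangiocyte marker, Cdh1, passed as higher, beside 1.09% of all genes tested called in it. Cdh1 was at 1.62 ± 0.28 (SE), while Krt19 of the same list was at -0.06 ± 0.19 and the pools of Sox9 overlapped. The part that any of these cell types has in the Cygb difference was not tested.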

How the data were processed

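The deposited values are log2 expression, made by the authors with RMA; oligo, RMA and limma are named, per the submitters' processing notes, with no version, order, genome build or annotation given in the sources used here. Array medians were 0.64 and 0.53 in KO and 0.52 and 0.56 in WT. Each array took 400 ng of RNA, per the labels' protocols.

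Of 41345 probe sets, 23521 had 1 symbol in the platform annotation, 1814 several and 16010 none. Per gene the probe set with the highest mean was kept. The genes whose mean reached the table median were tested with limma (version 3.58.1, R version 4.3.3; lmFit and eBayes on genotype alone, with Benjamini-Hochberg adjustment; degrees of freedom were 2 residual and 3.67 prior). P-values rest on the spread between pools, 2 per genotype; the number of arrays limits precision. Scan dates were not used here, and batches were not tested.

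The members and lists were chosen with earlier results of these data known. Named are Nrg4, the members, any list gene past the threshold and the 4 genes of each process list with the smallest p. Others are named for lying under the filter, to compare with a member, for a sentence on their role or to show a list's spread. Alternatives were array scaling (centring, quantile), probe set averaging, filters, variance models (limma-trend, robust, with statmod 1.5.0), pool number as a block and each pool left out.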

Additional observations from a re-analysis of the deposited data

How the results depend on the processing

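No member passed the adjusted threshold under any of the 12 alternatives run for single genes, and Cygb, Lrat, Hgf and Cnn1 kept their direction in all 12, with Cygb between 0.80 and 0.95 and its adjusted p between 0.0561 and 0.611 (limma). Probe set averaging, the filters, the variance models and the block leave every member's difference as it was. Only scaling and leaving out a pool could turn a direction. Under the stricter filter Hand2, Myh11 and Cnn1 were not tested, and their values there repeat the fit without a filter. Directions of small differences turned: with arrays centred on their medians Acta2 was at -0.039 and Tagln at -0.012, and with quantile normalization they were at -0.0074 and -0.028. Over the 4 fits without 1 pool, Acta2 lay between -0.11 and 0.12, Tagln between -0.18 and 0.25, Myh11 between -0.46 and 0.43, Reln between -0.30 and 0.084, Des between -0.34 and 0.15, and Hand2 between -0.23 and 0.75. The contractile median lay between -0.20 (without WT pool 2) and 0.072, the identity median between -0.02 and 0.22, and the gap between 0.01 and 0.53. Counting Des with the contractile genes gave a gap of 0.34, and the difference of medians gave 0.16. The cause of these moves was not tested.

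Over all genes limma called 6, against 136 with a variance that follows intensity and 0 in each fit without 1 pool (fewer samples), where 906 to 1314 genes were at an unadjusted p under 0.05. The replicate block, with pool number as a block, called 2 genes, with Cygb at an adjusted p of 0.364, and changed no call of a member. Dim members such as Cnn1 lie close to the table median, where a change may not be seen. Pool numbers 1 and 2 occur in both genotypes. Same-numbered pools did not deviate together (r = -0.04 across 12458 genes, which are not independent), so they were not paired. Some members did shift with pool number: Hand2, Des and Reln were higher, and Myh11 and Lrat lower, in pool 2 of both genotypes. The SE of Hand2 was 0.43 in the main fit and 0.23 with the block. For such genes leaving out 1 pool also unbalances pool number, and its part in their changes of sign was not tested. The gap of identity minus contractile genes was higher in pool 2 of both genotypes. It was 2.11 against 1.60 in KO and 1.80 against 1.37 in WT. The block was not run for the gap, so its overlap holds for unpaired pools.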
